A study of Mus musculus with 4 samples.

Results

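Transcript levels were examined for 10 mouse genes that encode brakes on mitogen-activated protein kinase (MAPK) signalling: the dual specificity phosphatase genes Dusp1, Dusp2, Dusp4, Dusp5, Dusp6, Dusp7 and Dusp10, the Sprouty genes Spry1 and Spry2, and the Sprouty-related gene Spred2. They were chosen by symbol, and all 10 were found among the 23284 gene rows of the count tables. RNA came from leukemic cells with high c-Kit, the receptor for stem cell factor, which marks immature blood cells. The cells were sorted from 2 Msi2 -/- mice and from 2 Msi2 flox/flox mice, called control here, all of strain C57BL/6, with 1 library per mouse. Msi2 encodes a Musashi protein, which binds RNA, and the study's title places it in leukemia driven by MLL. The MLL fusion, the recombinase that removed Msi2, and the age and sex of the mice are not stated in the labels.

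MAP kinases are switched on by phosphate groups on a threonine and a nearby tyrosine, and dual specificity phosphatases of the MAP kinase phosphatase class remove both. Many of these phosphatases are themselves transcribed in response to the kinases they switch off, which makes them feedback inhibitors. Sprouty and Spred proteins act further upstream, between growth factor receptors such as c-Kit and the RAS and RAF proteins that lead to the kinase ERK, and their genes are also commonly induced by ERK signalling.

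Gene counts totalled between 72273679 and 87564774 per library, so that 3 counts correspond to between 0.0343 and 0.0412 CPM (counts-per-million, scaled here by TMM library sizes). Msi2 had 8 and 17 counts in the Msi2 -/- libraries, against 2804 and 3562 counts in the controls. The leukemic progenitor genes Kit, Hoxa9 and Meis1 were present in all 4 libraries, with Kit at 68.1 and 57.1 CPM in Msi2 -/- cells and at 50.4 and 51.9 CPM in controls. Xist, which is transcribed from the inactive X chromosome of female cells, had 0.469 and 0.624 CPM in Msi2 -/- cells and 1455 and 654 CPM in controls, so genotype and the sex of the cells cannot be told apart. None of the 10 genes lies on X or Y, which was not looked up for the other genes named below. In bulk RNA, fewer cells of a type and less RNA per cell cannot be told apart.

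RefSeq promoter windows of the assembly GRCm38.p6, running from 250 bases before to 50 bases after the annotated start, were found for 9 of the 10 genes. Of these, 5 are printed 5′ to 3′ to set them beside the expression results. Dusp7 and Spry2 had the smallest p-values, Dusp6 had the widest gap between the Msi2 -/- mice, and Dusp1 and Dusp5 carry response elements for which feedback phosphatase genes are known. The windows are chr9:106368382-106368681 on the plus strand for Dusp7, chr14:105896770-105897069 on the minus strand for Spry2, chr10:99262981-99263280 on the plus strand for Dusp6, chr17:26508423-26508722 on the minus strand for Dusp1 and chr19:53528895-53529194 on the plus strand for Dusp5. Capitals mark matches on either strand to the motifs searched.
Dusp7 promoter: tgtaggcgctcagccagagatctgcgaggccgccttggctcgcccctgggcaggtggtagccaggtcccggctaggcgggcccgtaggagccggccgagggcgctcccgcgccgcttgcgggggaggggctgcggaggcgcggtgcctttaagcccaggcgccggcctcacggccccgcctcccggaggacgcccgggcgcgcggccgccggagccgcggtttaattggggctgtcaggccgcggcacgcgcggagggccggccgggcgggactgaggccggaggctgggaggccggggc
Spry2 promoter: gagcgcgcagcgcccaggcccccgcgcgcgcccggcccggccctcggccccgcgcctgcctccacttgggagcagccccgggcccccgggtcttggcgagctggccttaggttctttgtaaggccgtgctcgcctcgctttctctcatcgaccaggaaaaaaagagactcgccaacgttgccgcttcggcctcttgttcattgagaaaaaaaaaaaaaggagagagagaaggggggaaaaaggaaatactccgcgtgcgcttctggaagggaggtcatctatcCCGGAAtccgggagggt
Dusp6 promoter: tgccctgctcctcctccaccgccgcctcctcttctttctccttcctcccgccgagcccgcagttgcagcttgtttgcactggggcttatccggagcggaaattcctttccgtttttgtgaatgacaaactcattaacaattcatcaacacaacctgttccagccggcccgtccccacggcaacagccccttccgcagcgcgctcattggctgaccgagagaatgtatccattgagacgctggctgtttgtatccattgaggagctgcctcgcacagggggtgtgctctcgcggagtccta
Dusp1 promoter: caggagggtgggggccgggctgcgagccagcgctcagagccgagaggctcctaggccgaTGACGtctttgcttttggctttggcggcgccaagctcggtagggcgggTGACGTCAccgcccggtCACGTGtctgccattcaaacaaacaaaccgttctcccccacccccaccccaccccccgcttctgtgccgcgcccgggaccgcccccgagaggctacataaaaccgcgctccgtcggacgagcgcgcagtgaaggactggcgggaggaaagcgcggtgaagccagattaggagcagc
Dusp5 promoter: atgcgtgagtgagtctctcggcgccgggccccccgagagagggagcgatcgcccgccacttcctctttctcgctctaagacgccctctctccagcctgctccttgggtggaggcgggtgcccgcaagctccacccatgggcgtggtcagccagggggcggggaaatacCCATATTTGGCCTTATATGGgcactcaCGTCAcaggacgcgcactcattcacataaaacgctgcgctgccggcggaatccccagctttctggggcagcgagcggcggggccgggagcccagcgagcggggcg

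The motifs searched were the cyclic AMP response element TGACGTCA, its part TGACG, the AP-1 site TGANTCA, the CArG box bound by serum response factor, the ETS site CCGGAA and the E-box CACGTG. Of these the first contains the next. The ETS site is a longer form of the ETS core GGAA, which was not searched by itself. The Dusp1 window held 1 full cyclic AMP response element, beginning 143 bases before the start, and 1 E-box, beginning 126 bases before it. The full element is present in 1.79% and the E-box in 7.15% of all 32851 promoter windows in the table. The Dusp5 window held 2 adjoining CArG boxes, beginning 82 and 72 bases before the start, where 1.63% of all windows hold at least 1. The Spry2 window held 1 ETS site CCGGAA, which lies in the part after the annotated start and is found in 14.9% of all windows. The window of Dusp2 held 1 E-box. The part TGACG occurs in 20.8% of all windows and was found in those of Dusp1, Dusp2, Dusp5 and Spred2. The AP-1 site, present in 7.81% of all windows, was not found in any of the 9. In the windows of Dusp6, Dusp7, Dusp10 and Spry1 none of the motifs searched was found, though those of Dusp6 and Spry1 hold the shorter GGAA. The GC content was 78.7% for Dusp7, 62.7% for Spry2, 57.3% for Dusp6, 67.0% for Dusp1 and 66.7% for Dusp5.

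The 10 genes covered a wide range of transcript levels. Per kilobase of the principal GENCODE transcript, Dusp6 averaged 13.8 CPM per kilobase in Msi2 -/- cells and 21.2 in controls, where it stood first. Dusp2 followed in the controls at 16.4 to 16.5 CPM per kilobase, Dusp7 at 13.9 to 14.7, Spred2 at 12.4 to 12.7 and Spry2 at 11.4 to 12.9. Spred2 and Spry2 overlapped in the controls and were not ordered beyond their spread. A second tier held Spry1, Dusp1, Dusp10 and Dusp5, with control means of 2.26, 1.98, 1.73 and 1.72 CPM per kilobase, and each neighbour in that order overlapped the next. Dusp4 was near the bottom, with 0.129 and 0.171 CPM per kilobase in Msi2 -/- cells and 0.239 and 0.210 in controls, from 31 and 36 counts against 53 and 42 counts. In Msi2 -/- replicate 1 the order differed, with Dusp2 first at 15.5 CPM per kilobase and Dusp6 at 3.73.

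**Figure D1:**
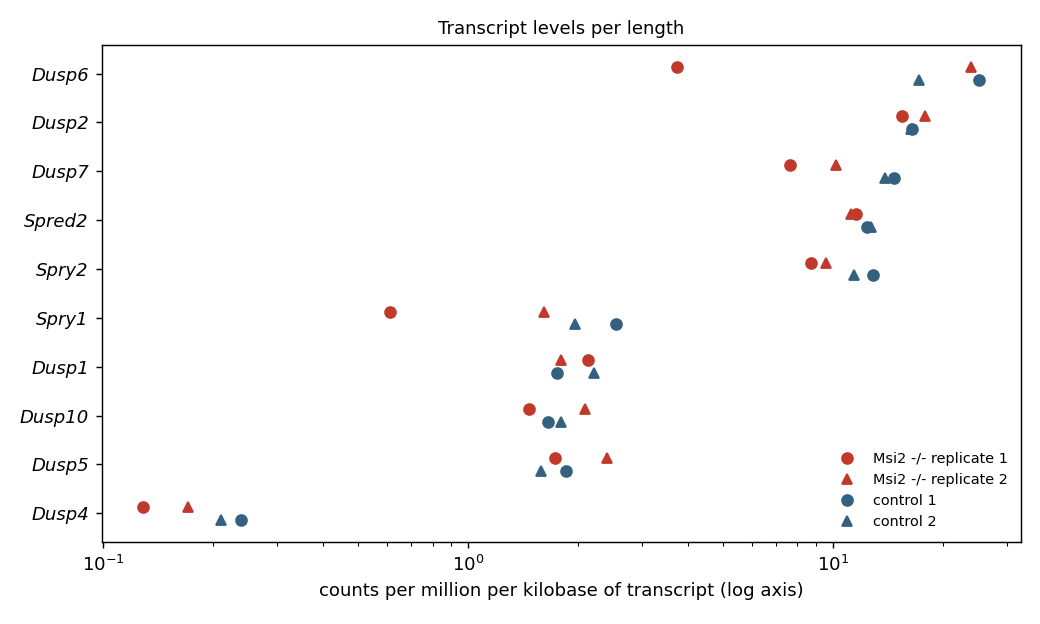
Transcript level of each gene in each library, in CPM per kilobase of its principal transcript on a log axis, with red points for Msi2 -/- and blue points for control libraries (circles replicate 1, triangles replicate 2). Dusp6, Dusp2, Dusp7, Spred2 and Spry2 form an upper tier, Dusp4 lies lowest, and Dusp6 at 3.73 in Msi2 -/- replicate 1 stands away from its other libraries.

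Dusp7 and Dusp6 encode cytoplasmic phosphatases that prefer ERK. Dusp7 stood lower in both Msi2 -/- mice. It had 24.4 and 32.9 CPM in Msi2 -/- cells and 47.3 and 44.7 CPM in controls, or 28.7 ± 5.98 against 46.0 ± 1.82 CPM (SD, n = 2 each). Both Msi2 -/- libraries lay below both controls, and the gap between groups exceeded the gap within either. The log2 fold change, Msi2 -/- over control, was -0.68 (SE 0.17). It did not pass edgeR's quasi-likelihood test over all genes (adjusted p = 0.333) and did pass DESeq2's Wald test (adjusted p = 0.0184). DESeq2's call was lost without Msi2 -/- replicate 1 (adjusted p = 0.137), without control 1 (adjusted p = 0.401) and without control 2 (adjusted p = 0.469), and was kept without Msi2 -/- replicate 2 (adjusted p = 4.51e-05). The direction was downward in each of these 4 fits, with edgeR log2 fold changes between -0.91 and -0.47. Leaving aside DESeq2 with a library left out, the adjusted p over the other alternatives ran from 0.0184 to 0.931.

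Dusp6, a widely used transcript marker of ERK feedback, differed more between the Msi2 -/- mice than between the groups. It had 10.4 and 66.8 CPM in Msi2 -/- cells and 70.2 and 48.2 CPM in controls. Replicate 1 alone was low, and replicate 2 lay between the controls, so the groups overlapped. The Msi2 -/- libraries were 6.40-fold apart and the controls 1.46-fold. Among tested genes with a mean of at least 10 CPM, 0.617% had an equal or larger difference between the Msi2 -/- libraries. The log2 fold change was -0.62 (SE 0.88, adjusted p = 0.791 by edgeR and 0.892 by DESeq2). It was 0.18 without Msi2 -/- replicate 1 and -2.50 without replicate 2, so its direction rests on 1 mouse. Without replicate 2 DESeq2's adjusted p was 1.81e-18, which sets 1 mouse against the controls, and it did not pass with any other library left out.

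Dusp1, Dusp2, Dusp4 and Dusp5 encode inducible phosphatases found in the nucleus. Dusp1, an immediate early gene whose product acts on p38, JNK and ERK, had 4.24 and 3.59 CPM in Msi2 -/- cells and 3.48 and 4.40 CPM in controls. The groups overlapped, and the log2 fold change was -0.0088 (SE 0.26, edgeR adjusted p = 0.992), with a sign that changed without Msi2 -/- replicate 2 (0.11) or without control 2 (0.17). Dusp2, a phosphatase of activated blood cells, had 25.0 and 28.9 CPM in Msi2 -/- cells and 26.8 and 26.5 CPM in controls. The controls lay between the Msi2 -/- libraries. Its log2 fold change was 0.02 (SE 0.12, edgeR adjusted p = 0.959). It was -0.0022 under upper-quartile scaling and -0.087 without Msi2 -/- replicate 2, so no direction can be given.

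Dusp5, whose product is selective for ERK, had 4.27 and 5.93 CPM in Msi2 -/- cells and 4.60 and 3.92 CPM in controls. Only Msi2 -/- replicate 2 lay above both controls. Over all libraries its log2 fold change was 0.26 (SE 0.27, edgeR adjusted p = 0.718), and 0.0026 without that library. Dusp4 had 0.355 and 0.468 CPM in Msi2 -/- cells and 0.654 and 0.576 CPM in controls. The groups did not overlap, but the log2 fold change of -0.58 had an SE of 0.39 at these low counts (adjusted p = 0.577 by edgeR and 0.796 by DESeq2).

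Dusp10, whose product acts mainly on p38 and JNK, had 4.10 and 5.86 CPM in Msi2 -/- cells and 4.64 and 5.04 CPM in controls. The controls again lay between the Msi2 -/- libraries. A log2 fold change of 0.04 (SE 0.27, edgeR adjusted p = 0.962) resulted, whose sign changed without Msi2 -/- replicate 2 (-0.24) and without control 1 (-0.01).

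**Figure D2:**
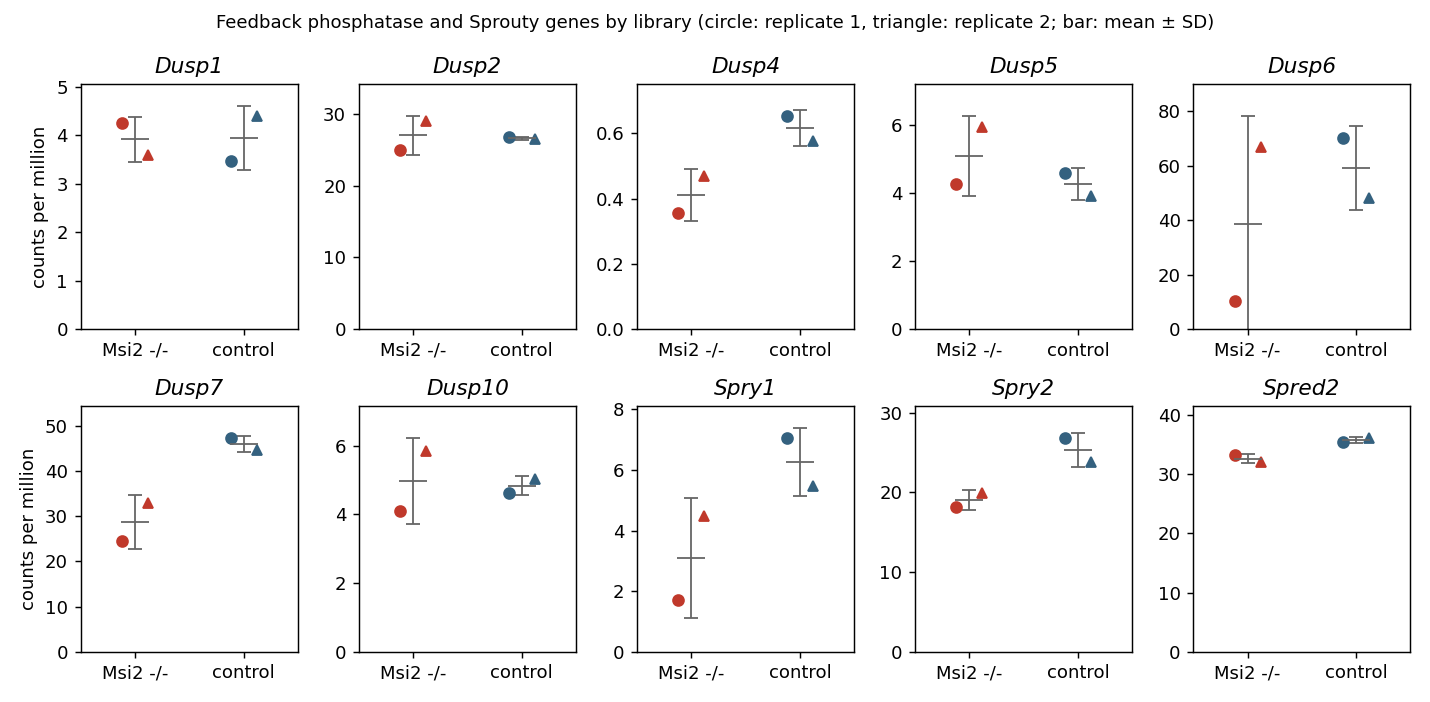
Level in CPM of each gene in the Msi2 -/- (red, left) and control (blue, right) libraries, with the mean and SD of 2 mice; each axis starts at 0, where the lower end of the Dusp6 bar is cut off. Dusp7, Spry1, Spry2, Spred2 and Dusp4 show both Msi2 -/- libraries below both controls, while Dusp6 is low in 1 mouse, at 10.4 CPM.

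The Sprouty genes stood lower in both Msi2 -/- mice, by unequal amounts. Spry2, the more abundant of the pair, had 18.2 and 19.97 CPM in Msi2 -/- cells and 26.8 and 23.8 CPM in controls, or 19.1 ± 1.26 against 25.3 ± 2.12 CPM (SD, n = 2 each). The gap between groups exceeded the gap within either. The log2 fold change was -0.41 (SE 0.13) and did not pass by edgeR (adjusted p = 0.360) or DESeq2 (adjusted p = 0.112). Leaving out each library in turn, it ran from -0.49 to -0.32.

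Spry1 had 1.69 and 4.50 CPM in Msi2 -/- cells and 7.06 and 5.46 CPM in controls. Both Msi2 -/- libraries lay below both controls, and replicate 1 was the lower of them, 2.66-fold below replicate 2. The log2 fold change was -1.02 (SE 0.53, adjusted p = 0.480 by edgeR and 0.368 by DESeq2). It was -0.47 without Msi2 -/- replicate 1 and -1.88 without replicate 2. Without replicate 2 DESeq2's adjusted p was 0.000752, a comparison of 1 mouse with the 2 controls, and with another library left out it ran up to 0.9998.

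Spred2, whose product brings the RAS inhibitor neurofibromin to the membrane, was the steadiest of the 10 genes between the Msi2 -/- mice, which were 1.03-fold apart. It had 33.2 and 32.1 CPM in Msi2 -/- cells and 35.4 and 36.1 CPM in controls. The groups did not overlap, and the log2 fold change of -0.13 (SE 0.092) did not pass by edgeR (adjusted p = 0.586) or DESeq2 (adjusted p = 0.647). Msi2 and Spred2 are both on chromosome 11.

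**Figure D3:**
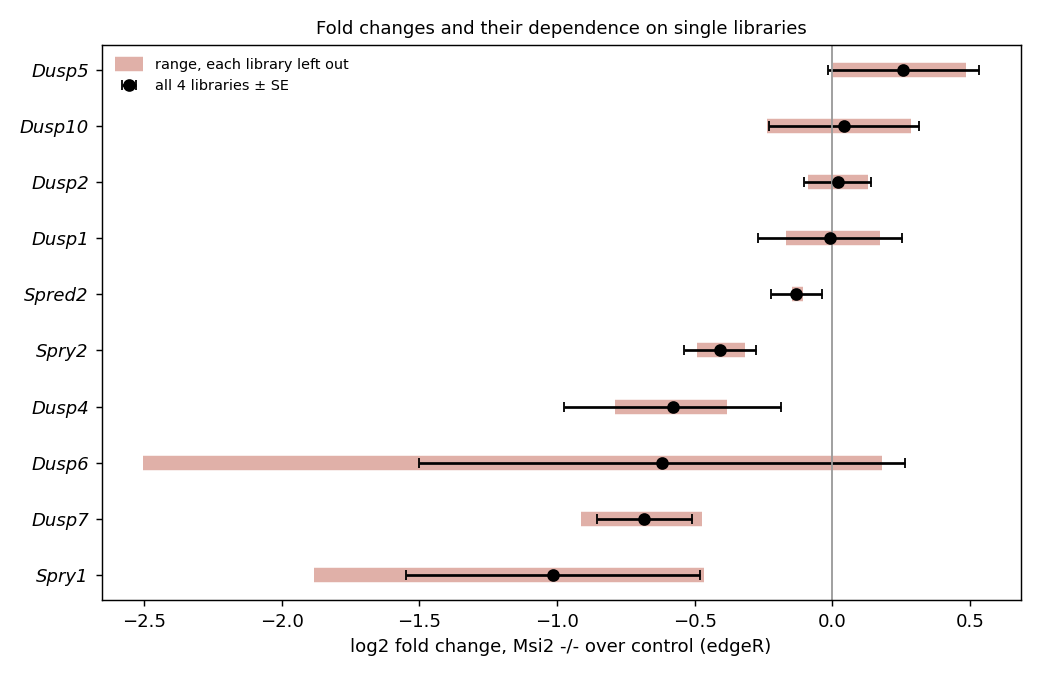
Log2 fold change of each gene, Msi2 -/- over control, from edgeR with all 4 libraries (black point, bar 1 SE), and the range of the fold change when each library is left out (pink band). The bands of Dusp7, Dusp4, Spry1, Spry2 and Spred2 stay below 0, and that of Dusp6 runs from -2.50 to 0.18.

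Across the 10 genes, all of which had enough counts to be tested, edgeR's quasi-likelihood test called 0 at an adjusted p under 0.05, where 0.00757% of 13215 tested genes were called (1 gene). At an unadjusted p under 0.05 it had 2 lower, Dusp7 and Spry2, and 0 higher, where 6.17% of all tested genes were lower and 6.69% higher. DESeq2 called 1 lower and 0 higher, against backgrounds of 2.73% lower and 3.12% higher, and limma-voom and edgeR's likelihood ratio test called 0. Both Msi2 -/- libraries lay below both controls for 5 of the 10 genes, where 24.6% of tested genes did so. The reverse held for 0, where 23.7% of tested genes did so. The fold change was below 0 for 7 of 10, where 50.3% of tested genes had one below 0, and the median was -0.27 against -0.0021 over all tested genes. With 2 libraries per group an exact two-sided permutation test of a single gene cannot go below p = 0.333. The deleted gene Msi2, at a log2 fold change of -8.07, also did not pass edgeR's quasi-likelihood test (adjusted p = 0.122). A gene or list without a call by that test may therefore still differ between the groups.

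Msi2 -/- replicate 1 had the lowest value of the 4 libraries for 7 of the 10 genes, namely Dusp2, Dusp4, Dusp6, Dusp7, Dusp10, Spry1 and Spry2, where 27.6% of tested genes were lowest there. The Msi2 -/- libraries were at least 2-fold apart for 2 of 10 genes, Dusp6 and Spry1, where 6.04% of tested genes were. The controls were at least 2-fold apart for 0 of 10, where 2.36% of tested genes were. The 10 genes summed to 125.9 and 201.0 CPM in Msi2 -/- cells and to 226.9 and 198.7 CPM in controls, which overlapped. Without Dusp6 the other 9 summed to 115.5 and 134.2 CPM in Msi2 -/- cells and to 156.7 and 150.5 CPM in controls, with both Msi2 -/- libraries below both controls. These 9 include the 5 genes already counted as lower without overlap, so their sum is not separate support. No background for such sums was computed.

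**Figure D4:**
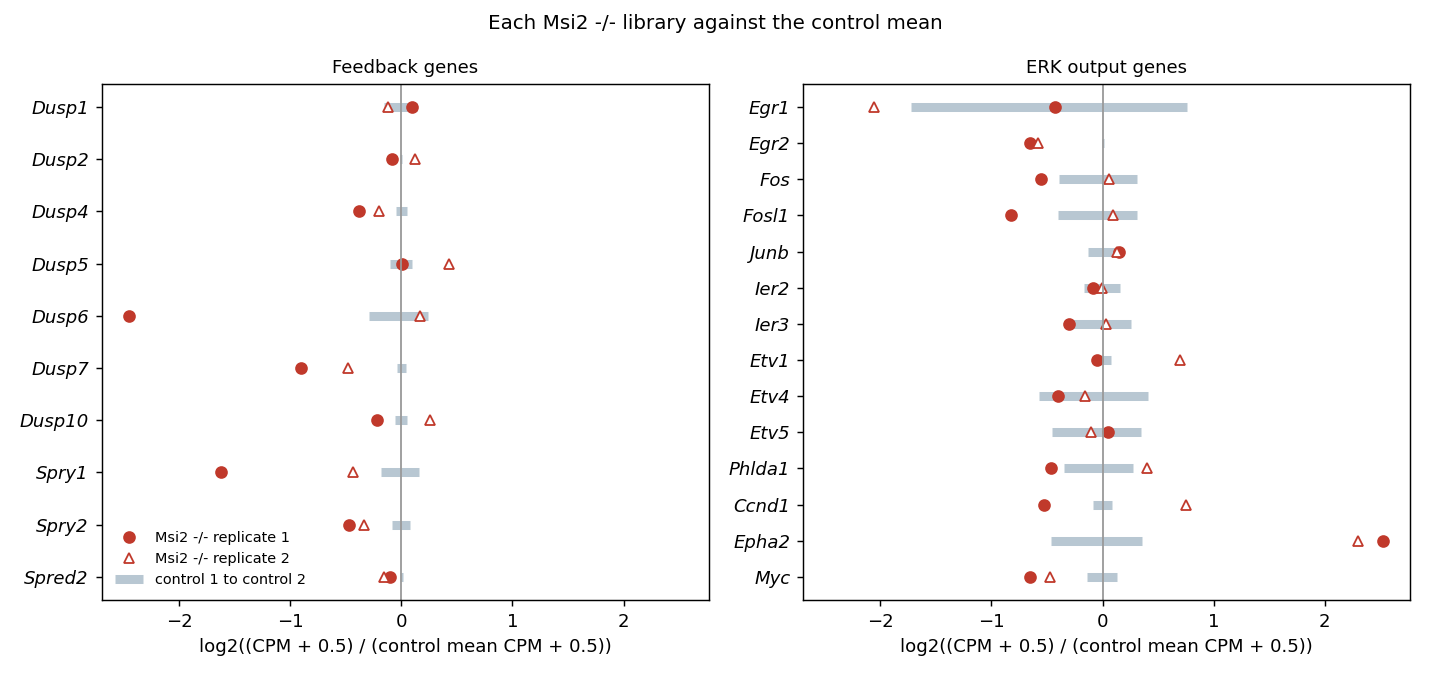
Level of each Msi2 -/- library relative to the control mean, as log2 of CPM with 0.5 added, for the feedback genes (left) and for 14 tested genes commonly used as ERK output (right); filled circles are replicate 1, open triangles replicate 2, and blue bars span the controls. Dusp6 and Spry1 in replicate 1 lie at -2.45 and -1.62, while Epha2 lies above both controls in both replicates.

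Markers of other cell types also differed between libraries. The macrophage list had 7 measured genes that summed to 31.9 and 82.0 CPM in Msi2 -/- cells and to 37.99 and 51.0 CPM in controls. The sum was mostly Emr1, with 19.9 and 64.7 CPM in Msi2 -/- cells and 28.7 and 42.9 CPM in controls, so it was lowest in replicate 1, in which Dusp6 was low. Of the 4 tested genes of the list 2 were lowest in that library. Csf1r, for a macrophage growth factor receptor, was higher in both Msi2 -/- mice, with 10.5 and 14.0 CPM in Msi2 -/- cells and 4.32 and 6.39 CPM in controls (adjusted p = 0.00928 by DESeq2), and C1qc was at 0 counts in all libraries. The 9 genes of the mature neutrophil list summed to 1398 and 2225 CPM in Msi2 -/- cells and to 1025 and 678 CPM in controls, mostly from S100a8, S100a9 and Ngp. DESeq2 called 4 of the 9 higher and 1 lower, where it called 3.12% of all genes with an adjusted p higher and 2.73% lower. The one called lower was Cxcr2, with 1.58 and 3.57 CPM in Msi2 -/- cells and 6.59 and 9.40 CPM in controls (adjusted p = 0.0318 by DESeq2). By edgeR 6 of the 9 had a fold change above 0 and 3 below, namely Mmp8, Mmp9 and Cxcr2. Of all tested genes 50.3% lay below 0. The groups overlapped for Ngp, Camp and Mmp8. The stroma and endothelium list summed to 13.2 and 4.38 CPM in Msi2 -/- cells and to 11.7 and 12.6 CPM in controls over 6 genes, mostly Pdgfrb. The mast cell and basophil list summed to 23.4 and 25.6 CPM in Msi2 -/- cells and to 31.7 and 32.4 CPM in controls over 6 genes. The leukemic progenitor list of 8 genes, mostly granule protein genes, summed to 9081 and 14694 CPM in Msi2 -/- cells and to 13264 and 13509 CPM in controls. Elane, Ctsg, Prtn3 and Hoxa10 were each lower in Msi2 -/- replicate 1 than in replicate 2. Kit, Hoxa9 and Meis1 were each higher in replicate 1, with Hoxa9 at 160.6 and 127.2 CPM and Meis1 at 96.6 and 69.0 CPM in the Msi2 -/- libraries. Mpo, for myeloperoxidase, was low in both Msi2 -/- libraries. It had 2117 and 2159 CPM in Msi2 -/- cells and 4001 and 4953 CPM in controls (adjusted p = 8.36e-12 by DESeq2). By edgeR 0 genes of the macrophage, neutrophil and progenitor lists passed. At an unadjusted p under 0.05 it had 1 macrophage gene and 4 neutrophil genes higher and 1 neutrophil gene and 1 progenitor gene lower. Of all tested genes 6.69% were higher and 6.17% lower at that threshold. The part of these lists in the values of the feedback genes was not tested. The T cell genes Cd3e, Cd3g and Cd8a, the B cell genes Ms4a1 and Pax5 and the erythroid genes Hba-a1 and Hba-a2 were at 0 counts in all 4 libraries. The B cell list of 5 genes, mostly Cd79b, summed to 20.9 and 18.7 CPM in Msi2 -/- cells and to 26.7 CPM in each control. The T cell list of 6 measured genes, mostly Lck, summed to 6.68 and 9.48 CPM in Msi2 -/- cells and to 9.03 and 10.002 CPM in controls, and the 7 erythroid genes to at most 1.14 CPM in any library.

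Genes that respond to cell handling were set beside Dusp1, since it belongs to the same immediate early class. The 12 genes of this list summed to 242.7 and 242.6 CPM in Msi2 -/- cells and to 276.1 and 215.4 CPM in controls, so the groups overlapped. By edgeR 0 of the 12 passed, 0 had an unadjusted p under 0.05, and DESeq2 called 0.

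Among the remaining family genes, 8 of 10 had enough counts to be tested. By edgeR 0 passed (unadjusted p under 0.05: 1 lower, 0 higher), and DESeq2, limma-voom and the likelihood ratio test called 0. Here and for the lists that follow, the unadjusted edgeR backgrounds over all tested genes were 6.17% lower and 6.69% higher. Those of DESeq2's calls were 2.73% lower and 3.12% higher. Spry4, a further Sprouty gene induced by ERK, was the one lower. It stood at 0.0801 and 0.143 CPM in Msi2 -/- cells and at 0.432 and 0.453 CPM in controls, with 7 and 11 counts against 35 and 33 counts. The groups did not overlap, and the log2 fold change was -1.98 (SE 0.52, adjusted p = 0.333 by edgeR and 0.277 by DESeq2). Spred3 had 2.39 and 2.07 CPM in Msi2 -/- cells and 2.90 and 4.01 CPM in controls (log2 fold change -0.63, SE 0.30). Spred1, the most abundant of these relatives in CPM, had 40.3 and 44.1 CPM in Msi2 -/- cells and 38.1 and 38.5 CPM in controls (log2 fold change 0.14, SE 0.095).

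Dusp9, the third of the cytoplasmic ERK phosphatases, had 12.6 and 2.89 CPM in Msi2 -/- cells and 6.80 and 7.07 CPM in controls, so its Msi2 -/- mice lay on opposite sides of the controls, with replicate 1 the higher. Dusp22 showed the same order, with 12.8 and 2.04 CPM in Msi2 -/- cells and 6.92 and 10.7 CPM in controls. For Dusp6 it was replicate 1 that was low. Log2 fold changes were 0.07 (SE 0.17) for Dusp3, 0.25 (SE 0.21) for Dusp16 and -0.68 (SE 0.45) for Dusp14. Dusp8 had at most 9 counts in any library and Spry3 had 0 counts in all 4, and neither was tested.

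The cascade that the feedback genes act on was examined next. Of 19 genes listed from the receptor adaptors to ERK and its substrate kinases, 18 were measured and tested, with a median log2 fold change of 0.08. By edgeR 0 passed (unadjusted p under 0.05: 1 lower, 4 higher), limma-voom and the likelihood ratio test called 0, and DESeq2 called 1 higher. That gene was Rps6ka1, which encodes the ERK substrate kinase RSK1. It had 636 and 582 CPM in Msi2 -/- cells and 500 and 438 CPM in controls (log2 fold change 0.38, SE 0.10, adjusted p = 0.333 by edgeR and 0.0234 by DESeq2). Sos2, for a RAS exchange factor, had 49.9 and 55.7 CPM in Msi2 -/- cells and 62.6 and 66.4 CPM in controls (log2 fold change -0.29, SE 0.091). Gab2, for a docking protein, had a log2 fold change of -0.08 (SE 0.073).

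Other inhibitors of RAS and receptor signalling gave a median of 0.03 over 10 tested genes. By edgeR 0 passed (unadjusted p under 0.05: 0 lower, 2 higher), limma-voom called 0, the likelihood ratio test 1 higher, and DESeq2 called 2 higher, Cbl and Dok3. Cbl, for a ubiquitin ligase that marks activated receptors including c-Kit, had 97.7 and 82.3 CPM in Msi2 -/- cells and 49.7 and 58.2 CPM in controls (log2 fold change 0.74, SE 0.13, adjusted p = 0.289 by edgeR and 0.000259 by DESeq2). Both Msi2 -/- libraries lay above both controls. Dok3, for an adaptor that restrains signalling in blood cells, had 136.3 and 124.0 CPM in Msi2 -/- cells and 104.7 and 92.9 CPM in controls (log2 fold change 0.40, SE 0.097, adjusted p = 0.0224 by DESeq2). Pebp1, for the RAF inhibitor RKIP, was at a log2 fold change of -0.22 (SE 0.096). Cblb, a relative of Cbl, was at -0.14 (SE 0.11).

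The p38 and JNK branch, on which Dusp1 and Dusp10 act, had 14 of 15 genes tested and a median of 0.08. By edgeR 0 passed (unadjusted p under 0.05: 2 lower, 2 higher), limma-voom and the likelihood ratio test called 0, and DESeq2 called 1 higher and 1 lower. Mapk13, for the delta form of p38, had 54.7 and 76.1 CPM in Msi2 -/- cells and 38.6 and 44.5 CPM in controls (log2 fold change 0.65, SE 0.19, adjusted p = 0.0429 by DESeq2). Map2k6, for a kinase that activates p38, had 6.12 and 8.24 CPM in Msi2 -/- cells and 11.7 and 14.7 CPM in controls (log2 fold change -0.88, SE 0.24, adjusted p = 0.0343 by DESeq2). Log2 fold changes were 0.17 (SE 0.060) for the kinase gene Map2k3 and -0.23 (SE 0.070) for Map3k1.

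Genes commonly read as ERK output pointed in both directions. Of 16 listed genes 14 were tested, 9 lay below 0 and 5 above, and the median was -0.09. By edgeR 0 passed (unadjusted p under 0.05: 2 lower, 1 higher) and limma-voom called 0, while DESeq2 and the likelihood ratio test each called 1 higher and 1 lower. Epha2, for an ephrin receptor, had 15.1 and 12.9 CPM in Msi2 -/- cells and 2.96 and 1.47 CPM in controls (log2 fold change 2.66, SE 0.41, adjusted p = 0.271 by edgeR and 3.21e-08 by DESeq2). Myc, the growth regulator, had 285 and 322 CPM in Msi2 -/- cells and 407 and 489 CPM in controls (log2 fold change -0.56, SE 0.12, adjusted p = 0.308 by edgeR and 0.00396 by DESeq2). Egr2 was, beside Myc, the other gene lower at an unadjusted p under 0.05. It had 12 and 13 counts in Msi2 -/- cells and 41 and 36 counts in controls. Its log2 fold change was -1.70 (SE 0.43, adjusted p = 0.333 by edgeR and 0.290 by DESeq2). Egr1, an immediate early gene, varied widely, with 6.42 and 1.74 CPM in Msi2 -/- cells and 15.3 and 2.32 CPM in controls, which overlapped. Junb, for an AP-1 subunit, had a log2 fold change of 0.14 (SE 0.11). The ETS factor genes Etv4 and Etv5, named after their values were seen because they are induced with Dusp6 in many cells, were not low in Msi2 -/- replicate 1 alone. Etv4 had 23.1 and 27.3 CPM in Msi2 -/- cells and 40.7 and 20.4 CPM in controls, and Etv5 had 26.9 and 24.3 CPM in Msi2 -/- cells and 33.2 and 18.9 CPM in controls. In both genes the Msi2 -/- libraries lay between the controls. Other genes of the list, Fos, Fosl1, Phlda1 and Ccnd1, lay below both controls in Msi2 -/- replicate 1 only. Relative to the control mean, the median log2 ratio over the 14 tested genes was -0.415 in replicate 1 and 0.0463 in replicate 2. Msi2 -/- replicate 1 was the lowest library for 6 of the 14, where 27.6% of tested genes were lowest there, and control 2 for 7. What these genes share with Dusp6 was not tested.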

How the data were processed

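RNA-seq libraries of 2 Msi2 -/- and 2 control mice were used, grouped by sample title. The authors deposited whole-number counts of reads for each gene symbol, without normalization. The submitters' processing notes name Trimmomatic, STAR, HTSeq, DESeq and build mm9. The sources used here give neither the annotation nor the strand setting. The 5 closing rows that name no gene held 19.1% to 20.1% of counts and were left out. They include a row for ambiguous reads, so reads of overlapping genes may be missing from the gene counts. The replicates differed far beyond sampling noise (chi-square per gene 151 between the Msi2 -/- libraries and 62.1 between the controls).

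In R 4.3.3, edgeR 4.0.16 (filterByExpr, minimum count 10, minimum total 15, TMM, quasi-likelihood test, group only, Benjamini-Hochberg adjusted p under 0.05 over 13215 genes) was the main test. The SE was taken from its F statistic. DESeq2 1.42.0 gave an adjusted p for 13281 genes, and limma 3.58.1 supplied voom. Leave-one-out fits assume that the lone mouse varies like the other group. Levels per length used GENCODE M21 transcript lengths, an annotation that may differ from the authors'. Named genes were all members and relatives, Msi2, Kit, and in each pathway list the DESeq2 or edgeR calls and the 2 genes of smallest edgeR p per direction with a mean of at least 1 CPM. Other genes were named after their values were seen, and single-gene results for some listed genes are left out. Members and lists were chosen with earlier results of these data known.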

Additional observations from a re-analysis of the deposited data

How the results depend on the processing

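At 2 mice per group the number of calls over all genes depended on the test. It was 1 with all libraries by edgeR's quasi-likelihood test, 6 with no filter on low counts, 776 by DESeq2, 0 by limma-voom, 312 by the likelihood ratio test, and between 0 and 106 with a library left out. With the replicate number as a block it was 0, and 0 of the 10 feedback genes were called. The labels give replicate numbers and state no pairing between the groups. Deviations of same-numbered libraries correlated at 0.0101 over 13215 genes. With 2 libraries per group this value cannot show whether same-numbered libraries were paired. Of these settings, DESeq2 alone called a feedback gene (1). DESeq2 with a library left out was added after the data were examined, and called between 0 and 3 feedback genes: 3 without Msi2 -/- replicate 2 (Dusp6, Dusp7 and Spry1) and 0 in the other fits. On all libraries it also called 1 gene of the ERK cascade, 2 of the RAS inhibitors, 2 of the p38 and JNK branch and 2 of the ERK output genes, where the likelihood ratio test called 1 of the RAS inhibitors and 2 of the ERK output genes. The cause of these differences was not tested. For DESeq2 with a library left out, no count over all genes was computed. Its 3 calls without Msi2 -/- replicate 2 therefore have no background to be judged against.

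Of 119 fold changes of the 10 genes under the alternatives, 8 changed sign, all in Dusp1, Dusp2, Dusp6 and Dusp10. Dusp1 was 0.0066 by limma-voom and ran from -0.17 to 0.17 with a library left out. Dusp2 was -0.0022 under upper-quartile scaling and ran from -0.087 to 0.13. Dusp6 ran from -2.50 to 0.18 and Dusp10 from -0.24 to 0.29. Dusp6 was -1.21 by limma-voom and -1.13 with the block. At 1 CPM in 2 libraries Dusp4 was filtered out and has no value.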
